A study of Danio rerio with 18 samples.

Results

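Normal zebrafish development from the 12 somites stage to 24 hours post fertilisation (24 hpf) was followed in 6 RNA sequencing libraries of control embryos, 3 per stage, out of 18 libraries in 6 groups in the series. The members were taken from the group labels, with no measured value used. Both groups were whole wild-type embryos (Danio rerio) kept at 28°C in E3 medium and given DMSO, the solvent of the retinoic acid used elsewhere in the series, from 80% epiboly onwards. The 3 control libraries of 80% epiboly, given DMSO from 30% epiboly, served to show where a transcript stood earlier, and no library with retinoic acid was used. The strain and the number of embryos in a library are not given in the sources used here. Nothing says that the replicates came from separate clutches, so p-values measure the spread between these libraries, which may be technical.

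In the segmentation period the trunk and tail are laid down as somites, the blocks that later form muscle and axial skeleton, while the brain, eyes and heart take shape. By 24 hpf the somites have formed, the body axis has straightened, the heart has begun to beat, and cells of muscle, blood, lens, pigment and nervous system are making the proteins of their mature state. RNA of a whole embryo is the sum over all of these tissues. A higher level of a transcript may reflect more cells of a type or more RNA per cell, and bulk libraries cannot tell these apart.

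The counts are given for 58549 Ensembl transcript IDs, and 0 of them were found in the reference tables of gene names used here. No gene is therefore named, the marker check of stage and tissue could not be made, and transcripts are described by level, timing and size of change. Among the 43030 IDs tested, 1872 with a mean of at least 10 counts had the same count as another ID in each of the 6 libraries, so IDs may not all be independent transcripts.

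The libraries of 12 somites held 87637013 to 88004323 transcript counts and those of 24 hpf 68391282 to 72734557, so depth did not overlap between the stages. Levels are given as CPM, counts scaled to a common library size by TMM factors over the 6 libraries. In these units 0.1 CPM stood for 8.60 to 8.86 counts at 12 somites and 6.44 to 7.41 counts at 24 hpf. Principal component 1, which separated the stages, held 88.7% of the variance of log2 CPM.

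The 24 hpf replicates differed far more from each other than those of 12 somites. Among 27195 transcripts with at least 1 CPM in all 6 libraries, the median absolute log2 difference between pairs of 12 somites replicates was 0.071 to 0.084. At 24 hpf it was 0.16 between replicates 1 and 3, 0.30 between 1 and 2, and 0.44 between 2 and 3. The biological coefficient of variation was 0.0521 at 12 somites and 0.248 at 24 hpf. Replicate 2 stood apart, with 49.98% of its counts in its 1000 most abundant transcripts, against 46.2% in replicate 1 and 43.5% in replicate 3. It was higher than replicate 3 by a median log2 difference of 0.33 among the 1691 transcripts with a mean of at least 100 CPM, and by 0.032 among the 12925 with 1 to 10 CPM. Along the axis from 12 somites to 24 hpf that the other libraries define, it lay 96.8% of the way, close to replicate 1 at 96.1%, with replicate 3 at 88.4%. Each of these percentages has its own axis, and at 24 hpf that of replicate 3 rests on replicates 1 and 2. On principal component 1, which all libraries share, replicates 1, 2 and 3 stood at 164, 170 and 163. The total number called, the class sizes and the fits of the 2 most abundant named transcripts are given below with and without 24 hpf replicate 2. Level bins, CPM gained and lost, lists of the most abundant transcripts and earlier levels of the classes are given only with it.

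**Figure D1:**
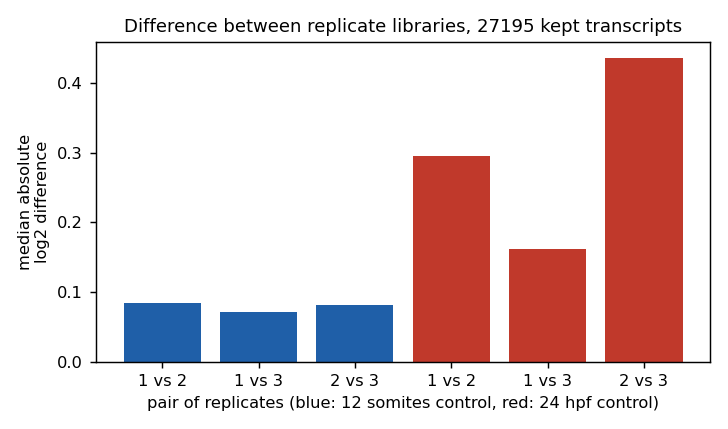
Median absolute log2 difference in CPM between each pair of replicate libraries, over 27195 transcripts with at least 1 CPM in all 6 libraries; blue bars are the 12 somites controls and red bars the 24 hpf controls. The 12 somites pairs lie at 0.071 to 0.084, while the pairs that include 24 hpf replicate 2 reach 0.30 and 0.44.

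Between the stages, 25395 of 43030 transcripts changed, which is 59% of those tested by the quasi-likelihood test of edgeR with Benjamini-Hochberg adjustment at an adjusted p under 0.05. Of these 13890 were higher at 24 hpf, or 32.3% of those tested, and 11505 were lower, or 26.7%. In 25180 of the called transcripts the 2 groups' libraries did not overlap, while among all tested the groups were apart in 68%. Without 24 hpf replicate 2 the number called was 31488.

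Over all called transcripts, rises were larger than falls. The median log2 fold change was 1.53 among the transcripts that rose and -0.84 among those that fell. Below 2-fold, falls outnumbered rises: in the range of log2 0.5 to 1 there were 5305 falls and 3315 rises. At 2-fold and above the order turned, with 9615 rises, 22.3% of those tested, and 4301 falls, 10%. Of the 6319 changes of at least 4-fold, 5226 were rises, and of the 1802 changes of at least 16-fold, 1592 were rises. The share of rises among changes of at least 4-fold was 82.7%. It was 82.2% with DESeq2 size factors, 82.9% with library totals, 83.6% after thinning all libraries to the smallest, and 81.4% without 24 hpf replicate 2. The excess of rises depended on level. For transcripts at 1 CPM or more in all 6 libraries, 2-fold rises and falls numbered 1757 and 825 at 1 to 10 CPM. They numbered 1302 and 1088 at 10 to 100 CPM and 162 and 135 above that, by mean CPM. By level at 12 somites, tested transcripts gave 3912 and 1285 at 0.1 to 1 CPM, or 36.8% and 12.1% of 10645. At 10 to 100 CPM they gave 596 and 1277, or 4.92% and 10.5% of 12113, so the share of rises differed more than that of falls. By level at 24 hpf, 10 to 100 CPM held 2044 and 746 of 12753 tested. Grouping by the level at either stage alone favours a direction, so nothing is read from the directions in these last bins.

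**Figure D2:**
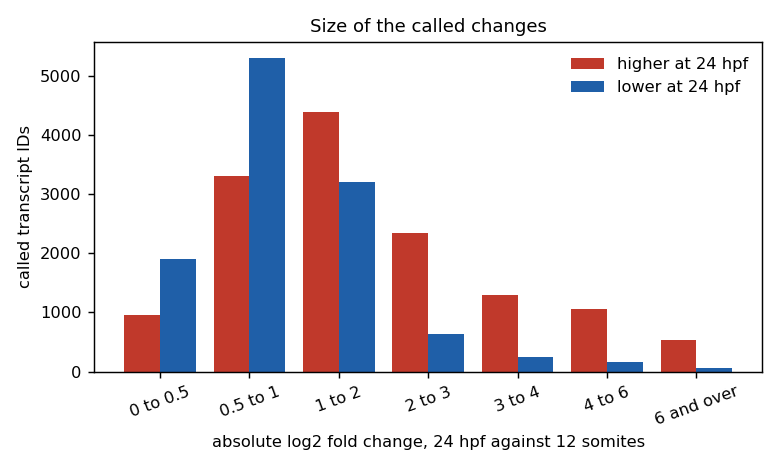
Number of called transcript IDs by absolute log2 fold change between 12 somites and 24 hpf, red for higher and blue for lower at 24 hpf. Falls outnumber rises below a log2 fold change of 1 (5305 against 3315 from 0.5 to 1), and rises outnumber falls above it (540 against 52 from 6 upwards).

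A transcript was taken as switched on when it lay under 0.1 CPM in each 12 somites library and at 1 CPM or more in each 24 hpf library, and as switched off in the opposite case. It was taken as kept when it had at least 1 CPM in all 6 libraries. These classes are cut from the levels themselves, so their sizes describe the libraries and are not tested. By these limits 336 transcripts were switched on, 26 were switched off and 27195 were kept. A further 12200 lay under 0.1 CPM in all 6 libraries, and 18792 fell between the limits.

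**Figure D3:**
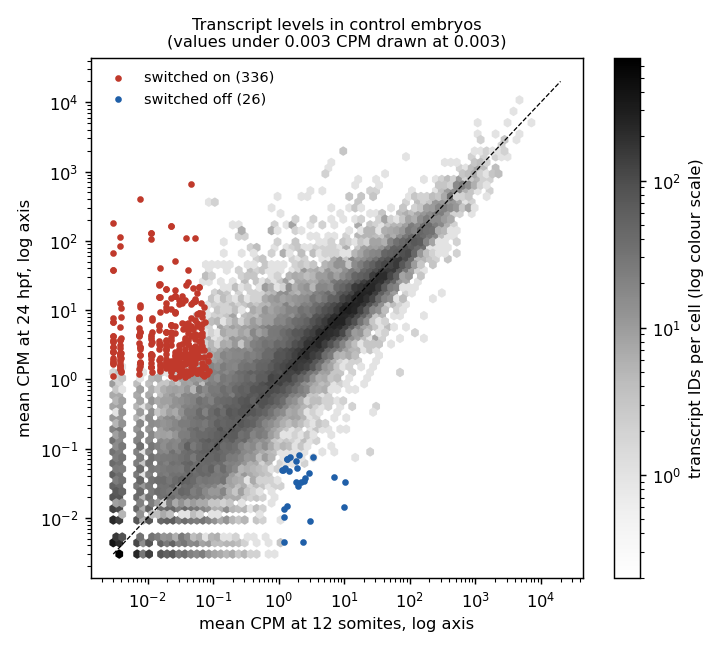
Mean CPM at 12 somites (x axis) and at 24 hpf (y axis), both on log axes, for each transcript ID with a count in the 6 libraries; grey cells count the IDs, red points are the 336 switched on and blue points the 26 switched off. The cloud follows the dashed line of equal levels and is wider above it than below it.

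The transcripts switched on were mostly low even at 24 hpf. Of the 336, 109 had a mean of 1 to 2 CPM at 24 hpf, 171 had 2 to 10 CPM, 45 had 10 to 100 CPM and 11 had at least 100 CPM. The median was 2.78 CPM. Those 11 held 55.3% of the summed level of the class at 24 hpf; none of their 12 somites libraries had more than 5 counts and none of their 24 hpf libraries fell below 79.3 CPM. The whole class made up 0.001% of transcript counts at 12 somites and 0.409% at 24 hpf. Its share was 0.425%, 0.389% and 0.413% in 24 hpf replicates 1, 2 and 3. Each of these libraries had to pass the limit of the class, so these shares do not show whether replicate 2 was like the others. Of the transcripts that passed by the other libraries alone, 86.2% reached 1 CPM in replicate 2, against 96.6% in replicate 1 and 94.9% in replicate 3. These are different sets, of 390, 348 and 354 IDs. On its set replicate 2 had a median of 2.41 CPM, against 2.32 in the other 24 hpf libraries. Replicate 1 had 2.66 against 2.73, and replicate 3 had 2.53 against 2.66.

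How far the switched on transcripts rose is limited by the few counts at 12 somites. In 23 of the 336 all 3 of those libraries were at 0, and against a floor of 3 counts over the group they were at least 98.1-fold to at least 15740-fold higher at 24 hpf. Another 75 had 1 to 3 counts over the group. For the 238 with more than 3 counts the ratio of mean CPM ran from 14.9 to 14456, with a median of 82.9. Floors and counting intervals cover counting error only. All 336 are among the called rises, as the limits make likely, and nothing is read from that.

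The switched on transcript with the highest lowest library at 24 hpf was ENSDART00000122889.2. It had 4 counts in each 12 somites library, or 0.0453, 0.0465 and 0.0451 CPM in replicates 1 to 3. At 24 hpf it had 722, 566 and 692 CPM, from 52956, 36482 and 51264 counts. The groups lay far apart, and replicate 2 was the lowest of the 24 hpf libraries. Its mean went from 0.0457 ± 0.00074 to 660 ± 82.5 CPM (SD, n = 3). On the log2 scale this was a rise by 13.77 with an SE of 0.22 (adjusted p = 3.65e-07, edgeR). The ratio of the pooled counts, scaled for depth, was 14547 in favour of 24 hpf. Its exact 95% counting interval was 8328 to 28154. With 12 counts over the 12 somites group, that SE understates the counting error, which the interval covers. At 80% epiboly the transcript had 1 or 2 counts per library. It ranked 158 of all IDs at 24 hpf and held 16.1% of the summed level of the switched on class.

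Transcripts switched off were fewer and lower. Of the 26, 15 had a mean of 1 to 2 CPM at 12 somites, 9 had 2 to 10 CPM and 2 had 10 CPM or more, with a median of 1.88 CPM and a maximum of 10.5 CPM. Together they made up 0.007% of transcript counts at 12 somites. None (0) was at 0 counts in all 3 libraries of 24 hpf, 7 had 1 to 3 counts over the group, and for the other 19 the ratio of mean CPM was 19.5 to 317, with a median of 36.9. By group means alone, 5 transcripts went from 10 CPM or more to under 0.1 CPM; the class holds 2 of these, since the other 3 had a 24 hpf library at 0.1 CPM or above.

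The highest of them by the same rule was ENSDART00000165705.1. It had 10.2, 10.1 and 9.75 CPM in 12 somites replicates 1 to 3, from 904, 869 and 864 counts. At 24 hpf it had 0, 1 and 2 counts. The 3 libraries of each stage lay close together and the stages were far apart. The ratio of the pooled counts, scaled for depth, was 708 in favour of 12 somites, with an exact 95% counting interval of 242 to 3438. The fitted change was -9.32 on the log2 scale, with an SE of 0.32 (adjusted p = 1.59e-06, edgeR). With 3 counts over the 24 hpf group, that SE understates the counting error, which the interval above covers. At 80% epiboly the transcript stood at 31.2, 38.9 and 34.9 CPM. Its earlier change to 12 somites was -1.74 on the log2 scale (SE 0.079, adjusted p = 1.49e-10, edgeR fit of these 2 stages).

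The sizes of both classes follow their limits. Just outside the switched on class, 330 transcripts had their highest 12 somites library at 0.1 to 0.2 CPM with all 24 hpf libraries at 1 CPM or more, and 273 lay under 0.1 CPM at 12 somites with their lowest 24 hpf library at 0.5 to 1 CPM. Just inside, 133 had their highest 12 somites library at 0.05 to 0.1 CPM and 155 had their lowest 24 hpf library at 1 to 2 CPM. For the switched off class the same bands held 45 and 38 transcripts outside and 17 and 18 inside. With 0.05 CPM as the lower limit the classes held 203 and 9, and without 24 hpf replicate 2 they held 396 and 38. A rule that every library must pass is looser with any library left out. Leaving out each in turn gave 348 to 396 switched on and 28 to 38 switched off.

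The kept transcripts carried nearly all of the RNA counted, 98.9% of transcript counts at 12 somites and 96.9% at 24 hpf. They gave 98.4% of the CPM lost by called falls, near their share of counts. Of the CPM gained by called rises they gave 87.9%, which is below that share. Switched on transcripts gave 2.11% of the gain. The rest of the gain came from transcripts between the limits, which held 1.04% of counts at 12 somites and 2.68% at 24 hpf. Of the 27195, 56.4% were called, against 59% of all tested. By direction 6781 rose and 8560 fell, so rises were 44.2% of these calls, against 54.7% of all calls. The excess of falls lay below 2-fold, and the median log2 fold change of the class was -0.11. Rises and falls numbered 6592 and 8809 with DESeq2 size factors and 6972 and 8184 with library totals. Without 24 hpf replicate 2 they numbered 8135 and 11536. In these alternatives the median of the class stayed at -0.10 to -0.13. Among kept transcripts that changed by at least 2-fold, 3221 rose and 2048 fell.

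To ask which levels held, the 95% interval of the log2 fold change was required to lie within -1 and 1. That was met by 16021 kept transcripts, or 58.9%. Of these 5755 were also called, as small changes can be, and 10266 were not. A further 1588 kept transcripts were neither called nor held, since their intervals were too wide to say. The share held was 54.0% among 12925 transcripts with a mean of 1 to 10 CPM, 63.0% among 12579 with 10 to 100 CPM and 65.8% among 1691 above that. Without 24 hpf replicate 2 the number held was 19692. With the narrower limits of -0.5 and 0.5 it was 4374.

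The rise with the largest gain in mean CPM was that of ENSDART00000012644.6. It had 4249, 5516 and 5478 CPM in 12 somites replicates 1 to 3 and 10730, 12060 and 9558 CPM at 24 hpf. The groups did not overlap; the lowest 12 somites library was replicate 1, and the highest at 24 hpf was replicate 2. The mean went from 5081 ± 721 to 10785 ± 1253 CPM (SD, n = 3), a rise by 1.09 on the log2 scale with an SE of 0.17 (adjusted p = 0.0012, edgeR). Without 24 hpf replicate 2 the rise was 0.99 (adjusted p = 8.66e-05, edgeR), just under 2-fold. This ID went from rank 2 to rank 1 of all IDs.

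The fall with the largest loss in mean CPM was that of ENSDART00000023156.6, the most abundant ID at 12 somites. It had 7040, 7428 and 7111 CPM there and 4484, 5251 and 4155 CPM at 24 hpf. The groups did not overlap, and replicate 2 was again the highest at 24 hpf. The mean went from 7193 ± 207 to 4630 ± 562 CPM (SD, n = 3), a change of -0.64 on the log2 scale with an SE of 0.14 (adjusted p = 0.00607, edgeR). Its rank went from 1 to 5. This change is below 2-fold, with a 95% interval of -0.96 to -0.31. Without 24 hpf replicate 2 the change was -0.74 (adjusted p = 7.84e-05, edgeR).

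**Figure D4:**
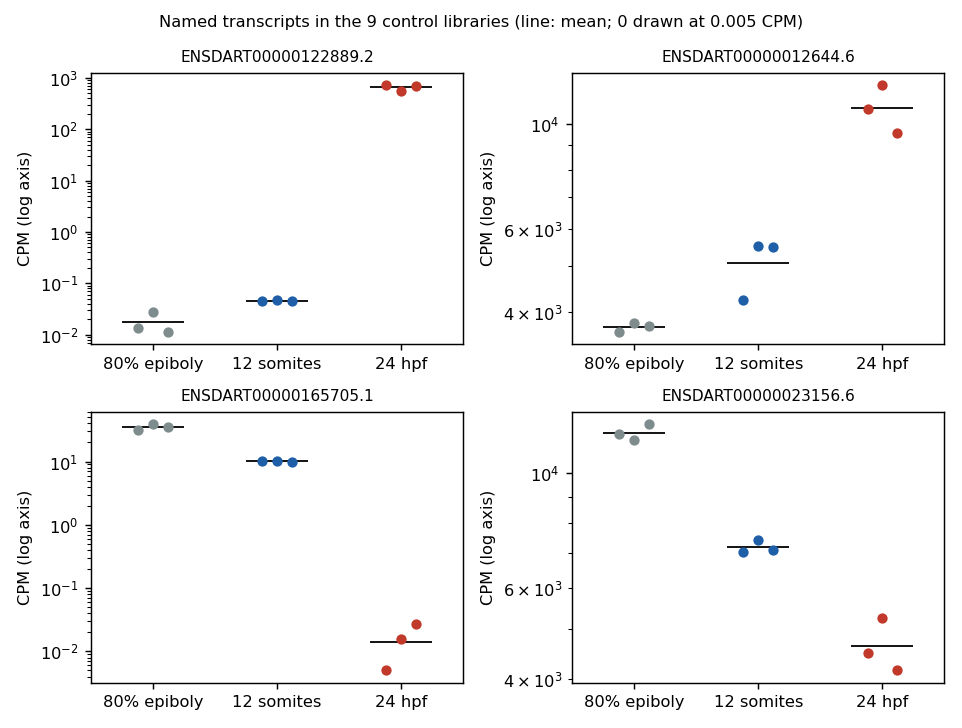
CPM on a log axis of the 4 named transcripts in each of the 9 control libraries; points are libraries (a count of 0 is drawn at the foot of its panel) and lines are means. The upper panels show ENSDART00000122889.2, which rises from 0.0457 to 660 CPM after 12 somites, and ENSDART00000012644.6, which rises from 5081 to 10785 CPM; the lower panels show the falls of ENSDART00000165705.1, from 10.03 to 0.0142 CPM, and of ENSDART00000023156.6, from 7193 to 4630 CPM.

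The most abundant transcripts were largely the same IDs at both stages. Of the 100 highest by mean CPM at 12 somites, 76 were among the 100 highest at 24 hpf. Of these 76, 53 held within 2-fold by the interval above. Among all 1691 kept transcripts with a mean of at least 100 CPM 65.8% held, so nothing particular to the 76 is read from this. By the calls, 12 of the 76 rose and 20 fell, and some of these are also among the 53 held. Of the 24 that entered, 18 were called higher, and their median went from 506 to 1112 CPM. Of the 24 that left, 20 were called lower, and their median went from 1173 to 682 CPM. Of all tested, 32.3% were called higher and 26.7% lower. Entering or leaving the list selects for rises or falls in these same values, so nothing is read from these directions. None (0) of those that entered came from the switched on class. Among the 1000 highest, 739 were shared, and 5 of the 261 that entered were switched on transcripts.

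Steps over several levels were rare. Grouped by mean CPM, 73.0% of the 1728 transcripts at 100 CPM or more at 12 somites stayed in that range, 26.7% went to 10 to 100 CPM and 4 went to 1 to 10 CPM. In the opposite direction, 12 transcripts went from under 0.1 CPM to 100 CPM or more, 26 from 0.1 to 1 CPM and 44 from 1 to 10 CPM. No transcript (0) at 100 CPM or more at 12 somites had a mean under 1 CPM at 24 hpf.

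The libraries of 80% epiboly, which the classes did not use, show where these transcripts stood at gastrulation. Of the 336 switched on, 238 (70.8%) were also under 0.1 CPM in all 3 libraries of 80% epiboly, 91 lay between the limits and 7 (2.08%) were at 1 CPM or more in all 3. Among all 15711 transcripts under 0.1 CPM at 12 somites, 86.1% were under 0.1 CPM at 80% epiboly and 0.274% were at 1 CPM or more. Their median at 12 somites was 0.0039 CPM, against 0.0265 CPM in the switched on class, so the sets were not matched in level. The 7 had a median of 3.301 CPM at 80% epiboly, 0.0456 CPM at 12 somites and 2.09 CPM at 24 hpf. Their dip at 12 somites is set by the limits that picked them.

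Among the 26 switched off, 10 (38.5%) had at least 1 CPM in all libraries of 80% epiboly, 10 lay between the limits and 6 (23.1%) were under 0.1 CPM. Of all 29310 transcripts with at least 1 CPM at 12 somites, 83.9% were at 1 CPM or more at 80% epiboly and 2.54% were under 0.1 CPM. Their median at 12 somites was 9.03 CPM, against 1.88 CPM in the switched off class, so these sets were not matched in level either. The 6 had a median of 0.0418 CPM at 80% epiboly, 1.44 CPM at 12 somites and 0.0514 CPM at 24 hpf. Their peak at 12 somites is likewise set by the limits. Kept transcripts were at 1 CPM or more at 80% epiboly in 85.4% of cases, and those kept within 2-fold in 91.4%. These shares are descriptions and were not tested.

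**Figure D5:**
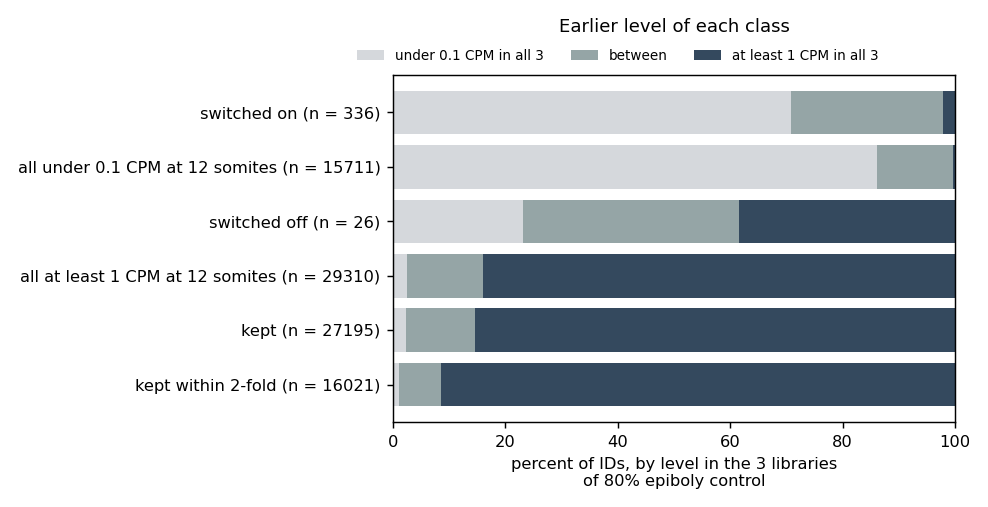
Share of the transcript IDs of each class (x axis, percent) that lay under 0.1 CPM in all 3 control libraries of 80% epiboly (light), at least 1 CPM in all 3 (dark) or between (grey). Of the switched on class 70.8% were under 0.1 CPM, against 86.1% of all IDs under 0.1 CPM at 12 somites. Of the switched off class 23.1% were, against 2.54% of all IDs with at least 1 CPM at 12 somites. These sets were not matched in level. Of the kept class 85.4% were at 1 CPM or more.

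Whether the change after 12 somites differed from the change before it was tested as the difference between the steps over the 9 control libraries, since both steps share the 12 somites controls. The steps differed for 23637 of 44470 transcripts, or 53.2% (edgeR, adjusted p under 0.05). The later step was more positive for 10966 (24.7% of those tested) and more negative for 12671 (28.5%). The share more positive, 46.4%, was 30.4% with library totals, under which the median difference over all transcripts shifted to -0.43. In separate fits, 84.2% of 41505 transcripts were called from 80% epiboly to 12 somites, 19718 of them with a change of at least 2-fold. From 12 somites to 24 hpf 59% of 43030 were called, 13916 of them with a change of at least 2-fold. The sets tested differed, and numbers called also depend on the spread between replicates, so they do not by themselves measure the amount of change. The median absolute log2 fold change was 0.94 for the earlier and 0.64 for the later step. Replicates of 80% epiboly varied by a coefficient of 0.0836, those of 12 somites by 0.0521 and those of 24 hpf by 0.249, and 1 estimate of spread per transcript was shared by the 3 stages. Without 24 hpf replicate 2 the steps differed for 29127 transcripts.

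ENSDART00000122889.2 changed after 12 somites by 12.44 log2 units more than before it (SE 1.13, adjusted p = 9.5e-06, edgeR). ENSDART00000165705.1 fell in both steps, and its later change minus its earlier one was -7.49 log2 units (SE 0.38, adjusted p = 1.91e-07, edgeR). That SE also understates the counting error of the few 24 hpf counts. ENSDART00000012644.6 had means of 3720, 5081 and 10785 CPM over the stages, and its later step differed from its earlier one by 0.65 (SE 0.21, adjusted p = 0.0256, edgeR). That call was lost with library totals (0.25, adjusted p = 0.265, edgeR) and without 12 somites replicate 1 (0.41, adjusted p = 0.141, edgeR). It was also lost without any 1 of the 3 libraries of 80% epiboly, with adjusted p of 0.0507 to 0.0576 (edgeR). ENSDART00000023156.6 had means of 11982, 7193 and 4630 CPM, with falls of -0.67 (adjusted p = 2.14e-08, edgeR) and -0.64 in the separate fits of the earlier and later step. With library totals the earlier fall was -0.35 (adjusted p = 2.11e-06, edgeR). The difference of the steps was 0.12 (SE 0.17, adjusted p = 0.586, edgeR) and was not called; it changed sign with library totals, to -0.29 (adjusted p = 0.0621, edgeR), and without 24 hpf replicate 2, to -0.075 (adjusted p = 0.572, edgeR).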

How the data were processed

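The authors deposited raw counts of reads per Ensembl transcript ID, 1 file per library. STAR and HTSeq are named as tools and GRCz10 (danRer10) as the build, per the submitters' processing notes; versions, annotation release, strand setting and the handling of shared reads are not given in the sources used here. The 5 summary lines of each file entered neither the library sizes nor the tests.

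Tests used edgeR 4.0.16 in R 4.3.3 on the 6 libraries: filterByExpr, TMM scaling, quasi-likelihood fits (glmQLFit, glmQLFTest) and Benjamini-Hochberg adjustment. Standard errors (SE) were taken from the log2 fold change and the quasi-likelihood F, as its size over the root of F. With few counts in a group, an SE taken this way can be smaller than the counting error. Libraries of 80% epiboly were put on the same CPM scale with TMM factors over 9 control libraries. The tests were also run on simulated data. No outcome of that run is given here, so nothing about scaling or error rates in these libraries is read from it. Libraries were grouped by title.

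Alternatives were other scalings and filters, DESeq2 1.42.0, limma 3.58.1, sva 3.50.0, stricter thresholds, the replicate number as a block, thinning, 1 ID per set of identical counts, all 9 control libraries, and leaving out each library.

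Members, classes and tests were chosen with earlier results of these data known. The named transcripts are the first of 4 orders: highest lowest library among those switched on and off, and largest gain and loss in mean CPM, with called, non-overlapping groups and no identical ID. With 0 of 58549 IDs matched to a name, planned gene lists were void.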

Additional observations from a re-analysis of the deposited data

How the results depend on the processing

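The number called stayed within 1.5 times under the other scalings, filters and tools, from 20923 with at least 10 counts in every library to 35565 with limma-voom and library weights; it was 25944 with the DESeq2 test, 24646 after thinning, 27241 with all 9 control libraries and 34573 with 1 surrogate variable, where 49.95% of the calls were higher. A minimum absolute log2 fold change of 1 left 13916. The share of calls that were higher, 54.7%, was 53.6% with DESeq2 size factors and 56.1% with library totals. It was 51.3% with limma-voom and library weights and 52.1% without 24 hpf replicate 2. At an adjusted p under 0.01 it was 58.4%, and at a minimum absolute log2 fold change of 1 it was 69.1%. The share therefore depends on the tool and the threshold. With 0.05 CPM as the lower limit, 203 were switched on and 9 off, and limits of -0.5 and 0.5 left 4374 kept transcripts held; these are stricter by construction. Leaving out 1 library gave 20984 to 31488 calls, 348 to 396 switched on, 28 to 38 switched off and 27240 to 28138 kept. It gave 13620 to 19692 held and 19307 to 29127 differences between steps. Each highest value was without 24 hpf replicate 2. The switched on, switched off and kept classes are looser by construction with a library left out. Whether replicates are paired by number could not be decided with 3 libraries a group. Libraries with the same number had deviations that correlated at 0.0386, 0.243 and 0.152, and those with different numbers at -0.241 to 0.0979. Replicates 2 and 3 correlated best with the same number, whereas 12 somites replicate 1 correlated best with 24 hpf replicate 3. With the replicate number as a block, 25720 were called, and the steps differed for 22550. The named transcripts had 74 values under alternatives; 73 had the same direction and were called, and ENSDART00000023156.6 missed the minimum log2 fold change of 1. The step differences of named transcripts were recomputed under other scalings and without each library after the data were seen. ENSDART00000122889.2 and ENSDART00000165705.1 had no value with at least 10 counts in every library. Depth limits the classes, since 0.1 CPM stands for 6.44 to 8.86 counts per library.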

Other observations

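Reads outside the transcript counts also differed between the stages, as shares of the transcript counts and the distinct summary lines together. Reads with no feature made up 4.05% ± 0.0857 at 12 somites and 5.86% ± 0.424 at 24 hpf (SD, n = 3), without overlap (p = 0.1 in an exact two-sided permutation test, which cannot go lower with 3 libraries a group). Reads without a unique alignment made up 7.25% ± 0.047 and 9.18% ± 0.173, and ambiguous reads 18.4% ± 0.024 and 17.0% ± 0.0808, also without overlap and with the same exact permutation p of 0.1 for each of the 3 shares, which is 0.1 after Benjamini-Hochberg adjustment as well. These reads are not assigned to a transcript, and their part in the changes above was not tested.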
